A study of Rattus norvegicus with 12 samples.

Results

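The natriuretic peptide system was followed through 8 genes, taken from the deposited count table of 32883 genes by their symbols: the peptides Nppa, Nppb and Nppc, the processing proteases Corin and Furin, and the receptors Npr1, Npr2 and Npr3. Each symbol matched 1 row, and 7 of the 8 passed the filter on low counts; Nppc did not. The cells were primary ventricular cardiomyocytes of newborn rats, and all 4 groups had received an adenovirus 2 days before RNA was taken. The controls carried LacZ, and the others carried human KAT6A, a histone acetyltransferase, as wild type (WT), as the K815R mutant that cannot be acetylated at that lysine, or as the K815Q mutant that mimics acetylation. Each group had 3 libraries, and the comparisons ask what each form of the enzyme does to the cells' transcripts.

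Atrial natriuretic peptide (Nppa) and B-type natriuretic peptide (Nppb) are hormones that heart muscle cells secrete, and both are textbook markers of stretch and of the fetal programme that returns in hypertrophy. Each is made as a longer precursor; the membrane protease corin cuts the atrial precursor at the cell surface, and furin cuts the B-type precursor in the secretory pathway. Both hormones act through the guanylyl cyclase receptor Npr1, C-type natriuretic peptide (Nppc) acts through Npr2, and Npr3 takes up all of these peptides and clears them.

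Gene counts per library lay between 19102048 and 25451686. Levels are given in CPM, counts scaled to library size by the trimmed mean of M values (TMM). A difference was called where the Benjamini-Hochberg adjusted p over 14063 genes was under 0.05 in edgeR's quasi-likelihood fit. Levels were not divided by transcript length, so they are compared between groups and never between genes. Kat6a (ENSRNOG00000025174), which checks the labels, stood at 45.2 to 53.6 CPM in LacZ, 82.0 to 106 in WT and 101 to 122 in K815R. In the K815Q-labelled libraries it stood at 43.35 to 49.97 CPM, inside or below the LacZ range. They are therefore called the K815Q-labelled libraries throughout, and their direction rests on the label. The Kat6a row is that of the rat gene, and reads of the human KAT6A from the virus cannot be told from the cells' own in it. All 8 cardiomyocyte markers were expressed, with a sum of 29616 to 32437 CPM per library. Markers of other cells were present as well: the 8 fibroblast markers summed to 10960 to 12803 CPM, the 7 endothelial markers matched by symbol to 145 to 217 and the 8 macrophage markers to 48.8 to 70.6. In RNA from such a mixture, fewer cells of a type and less RNA per cell cannot be told apart. Nothing in the labels says that the 3 libraries of a group came from separate cell isolations, so p-values measure the spread between these libraries.

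The clearest differences within the system lay in Nppb: K815R exceeded both WT and the K815Q-labelled libraries, and both of these lay below LacZ. Npr1 was higher in K815R than in LacZ, and Nppa was higher in K815R than in WT. Tested over all 4 groups at once, edgeR called 3 of the 7 tested members (Nppa, Nppb and Npr1), while 8.13% of all genes tested were called. Across the 6 pairwise comparisons 6 of 42 member results were called, where 3.22% of the results of all genes were called. Corin, Furin, Npr2 and Npr3 were called in none.

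By comparison, WT against LacZ had 1 of 7 members called (Nppb, lower), where 5.34% of all genes were called, 1.95% higher and 3.39% lower. K815R against LacZ had 1 (Npr1, higher), where 2.47% of all genes were called, 0.74% higher and 1.74% lower. The K815Q-labelled libraries against LacZ had 1 (Nppb, lower), where 7.85% of all genes were called, 2.87% higher and 4.98% lower. K815R against WT had 2, Nppa and Nppb, both higher, where 2.2% of all genes were called, 1.32% higher and 0.882% lower, and the median log2 difference of the 7 members was 0.17 against 0.00 for all genes. The K815Q-labelled libraries against WT had 0 of 7 by edgeR and by DESeq2, where 1.07% of all genes were called, 0.718% higher and 0.356% lower; Furin and Npr2 had an unadjusted p under 0.05. K815R against the K815Q-labelled libraries had 1 (Nppb, higher), where 0.363% of all genes were called, 0.213% higher and 0.149% lower. Comparisons that share a group of libraries are not independent of each other.

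**Figure D1:**
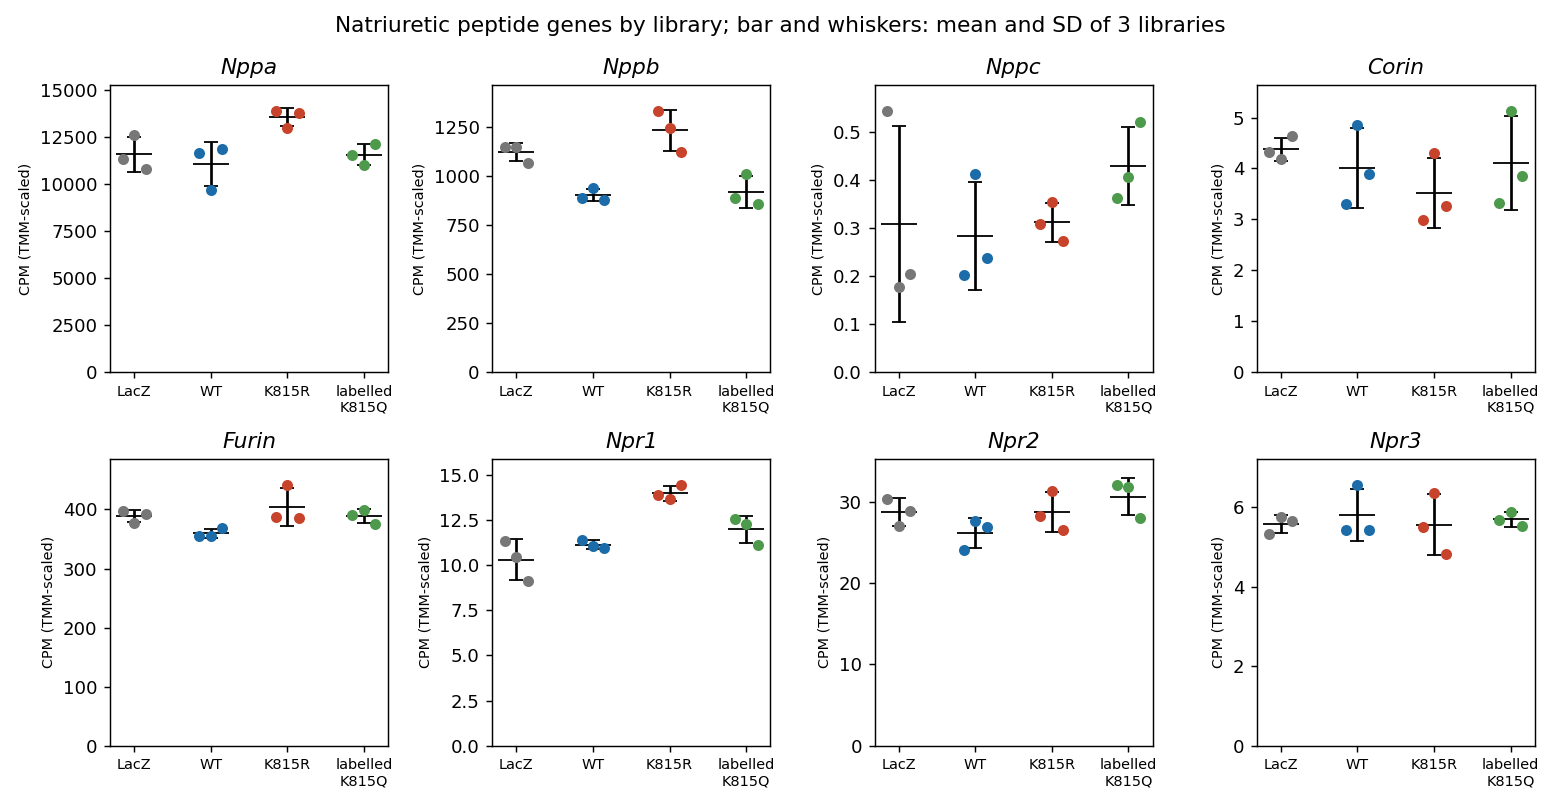
TMM-scaled CPM (y axis, from 0) of the 8 genes in each of the 12 libraries (points), by group (x axis); the bar and whiskers are the mean and SD of 3 libraries. Nppb is lowest in WT (mean 902 CPM) and highest in K815R (mean 1233 CPM), and all 3 K815R libraries exceed every other library in Nppa and Npr1.

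Nppb (ENSRNOG00000008141) stood at 1149, 1147 and 1068 CPM in the LacZ libraries, at 889.6, 937.1 and 880.5 CPM in WT, at 1332, 1245 and 1123 CPM in K815R, and at 889, 1013 and 857.9 CPM in the K815Q-labelled libraries. Every K815R and every LacZ library lay above every WT and every K815Q-labelled library, whereas the K815R and LacZ ranges overlapped, since K815R replicate 3 lay inside the LacZ range. The means were 1121 ± 46.3 CPM with LacZ, 902 ± 30.4 with WT, 1233 ± 105 with K815R and 920 ± 82.1 in the K815Q-labelled libraries (SD, n = 3 each). In falling order the groups were thus K815R, LacZ, labelled K815Q and WT. Of neighbours in this order, edgeR called the middle pair, in 3 of 6 fits that left out a library. The first pair and the last pair were not called. The distance from lowest to highest mean was 1.37-fold.

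Against WT, Nppb in K815R was higher by 36.7% (log2 fold change 0.45, SE 0.0651, 95% interval 0.32 to 0.59, adjusted p 5.96e-04 by edgeR), and it ranked 15th of the 14063 genes by p. Against the K815Q-labelled libraries it was higher by 34.1% (log2 fold change 0.42, 95% interval 0.29 to 0.56, adjusted p 0.00293 by edgeR), the 8th lowest p of that comparison. Every fit that left out 1 of the 6 libraries compared kept both calls, with log2 fold changes of 0.39 to 0.52 and 0.36 to 0.50. WT lay below LacZ by -0.31 on the log2 scale (SE 0.0650, adjusted p 0.00498 by edgeR), called in 6 of 6 such fits. The K815Q-labelled libraries lay below LacZ by -0.29 (SE 0.0650, adjusted p 0.00968 by edgeR). That call was lost without LacZ replicate 2, K815Q replicate 1 or K815Q replicate 3 (adjusted p 0.0561, 0.0741 and 0.0553 by edgeR). WT and the K815Q-labelled libraries were not told apart: the log2 difference was 0.03, with a 95% interval of -0.11 to 0.16. The 8 cardiomyocyte markers summed to 31833 to 32336 CPM in WT and 29616 to 30517 in LacZ, and the 8 fibroblast markers to 10960 to 12012 and 11818 to 12686. Col1a1 and Col3a1 made up most of the fibroblast sum, with means of 7378 and 3142 CPM in WT and 8256 and 3088 in LacZ. Of the 8 fibroblast markers, 2 were called in WT against LacZ, Pdgfra (-0.36) and Postn (0.35), where 5.34% of all genes were called. The same 2 were called in K815R against WT, where 2.2% of all genes were called. Pdgfra was higher there (0.54, adjusted p 7.6e-05) and Postn lower (-0.36, adjusted p 0.00226, both by edgeR). In K815R the fibroblast sum was 11062 to 11510 CPM and the cardiomyocyte sum 30345 to 31578. In the K815Q-labelled libraries against LacZ, Postn (0.20) and Tcf21 (0.53) were called higher, where 7.85% of all genes were called. Against WT, Pdgfra (0.30) was called higher in them, where 1.07% of all genes were called. The part of these markers in the Nppb result was not tested. K815R and LacZ differed by 0.14, with a 95% interval of 0.003 to 0.27 and an adjusted p of 0.352 by edgeR.

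Nppa (ENSRNOG00000008176) accounted for a mean of 1.11% to 1.34% of all gene counts in a group. It stood at 11331, 12597 and 10779 CPM in LacZ, at 11629, 9671 and 11829 CPM in WT, at 13857, 12980 and 13763 CPM in K815R, and at 11542, 10998 and 12081 CPM in the K815Q-labelled libraries. All 3 K815R libraries were above all 9 others, and the other groups overlapped one another. The means were 11569 ± 932 CPM with LacZ, 11043 ± 1192 with WT, 13533 ± 482 with K815R and 11540 ± 541 in the K815Q-labelled libraries (SD, n = 3 each). The order of groups was that of Nppb, over a narrower span of 1.23-fold.

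K815R exceeded WT in Nppa by 22.6% (log2 fold change 0.29, SE 0.0734, 95% interval 0.14 to 0.45, adjusted p 0.0370 by edgeR). Without WT replicate 2, the lowest library, the log2 fold change was 0.21 (adjusted p 0.205 by edgeR). The call was also lost without WT replicate 1, K815R replicate 1 or K815R replicate 3 (log2 fold changes 0.33, 0.28 and 0.28, adjusted p 0.0573, 0.127 and 0.120 by edgeR). The comparisons of K815R with LacZ (0.23, 95% interval 0.07 to 0.38) and with the K815Q-labelled libraries (0.23, interval 0.08 to 0.38) gave similar sizes and missed the threshold (adjusted p 0.117 and 0.195 by edgeR). Among LacZ, WT and the K815Q-labelled libraries the log2 differences lay between -0.07 and 0.06, and none was called. The 5 atrial markers (Myl4, Myl7, Sln, Nr2f1 and Nr2f2) bear on Nppa because atrial muscle is its richest source. They summed to 782 to 937 CPM in K815R and 837 to 919 CPM in WT. Most of this sum was Myl4, with means of 795 CPM in K815R and 809 in WT, so it says little of the other markers. Of the 5 markers, Nr2f1 was called higher in K815R than in WT and in LacZ, and Sln stood below 1 CPM in every group mean. The part of these markers in the Nppa result was not tested.

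Since both peptide genes were highest in K815R, the stretches before their starts are shown, with GATAA (the core of GATA factor sites) and CATTCC (the M-CAT element bound by TEAD factors, here read on the other strand as GGAATG) in capitals. The sequences are RefSeq's, on the GRCr8 build, plus strand, chr5:163711934-163712183 for Nppa and chr5:163699758-163699954 for Nppb; the last 53 of the 250 bases before the Nppb start were left out because another RefSeq transcript begins there.
Nppa: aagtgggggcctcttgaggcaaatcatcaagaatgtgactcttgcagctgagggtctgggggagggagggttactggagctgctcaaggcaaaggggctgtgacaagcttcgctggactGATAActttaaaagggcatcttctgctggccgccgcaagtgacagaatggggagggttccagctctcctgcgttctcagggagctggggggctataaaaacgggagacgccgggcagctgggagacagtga
Nppb: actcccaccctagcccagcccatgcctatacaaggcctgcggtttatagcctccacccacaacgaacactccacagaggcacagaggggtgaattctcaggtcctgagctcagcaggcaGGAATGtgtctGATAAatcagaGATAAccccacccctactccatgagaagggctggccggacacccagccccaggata
In the 250 bases before its start, Nppb held GATAA at -120 and -109 as printed and again at -57, across the end of the printed stretch, and CATTCC on the other strand at -131. Nppa held a single GATAA at -131 and no CATTCC. Of 33469 rat promoter windows of this length, 23.5% held GATAA and 12.1% held CATTCC on either strand. Also searched on both strands were TATAAA (12.9% of windows), TNAAGTG for NKX2-5 (9.89%), TGANTCA for AP-1 (6.34%) and the CArG box of SRF (1.5%). Nppa held TATAAA at -39 and Nppb held it on the other strand at -208, and the other 3 motifs were in neither window. None of these matches overlapped another. Npr1, also highest in K815R, held no match to any of these motifs in its window. Furin, whose mean was highest there too, had no promoter sequence to search. Such matches are letters in a window and no measure of binding.

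The ratio of Nppa to Nppb counts, in which the library size cancels, was 9.86, 11.0 and 10.1 in LacZ and 10.4, 10.4 and 12.3 in K815R. In WT it was 13.1, 10.3 and 13.4, and in the K815Q-labelled libraries 13.0, 10.9 and 14.1. The groups with lower Nppb had the higher mean ratios, 12.3 and 12.6 against 10.3 and 11.0, but their ranges overlapped. On the log2 scale a difference among the 4 groups was not called (exact permutation test over 369600 assignments, p = 0.189, adjusted over 2 ratios 0.189). Across the 12 libraries the 2 peptide genes had a Pearson r of 0.54 in log2 CPM, given as a description because the libraries share groups and scaling.

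**Figure D2:**
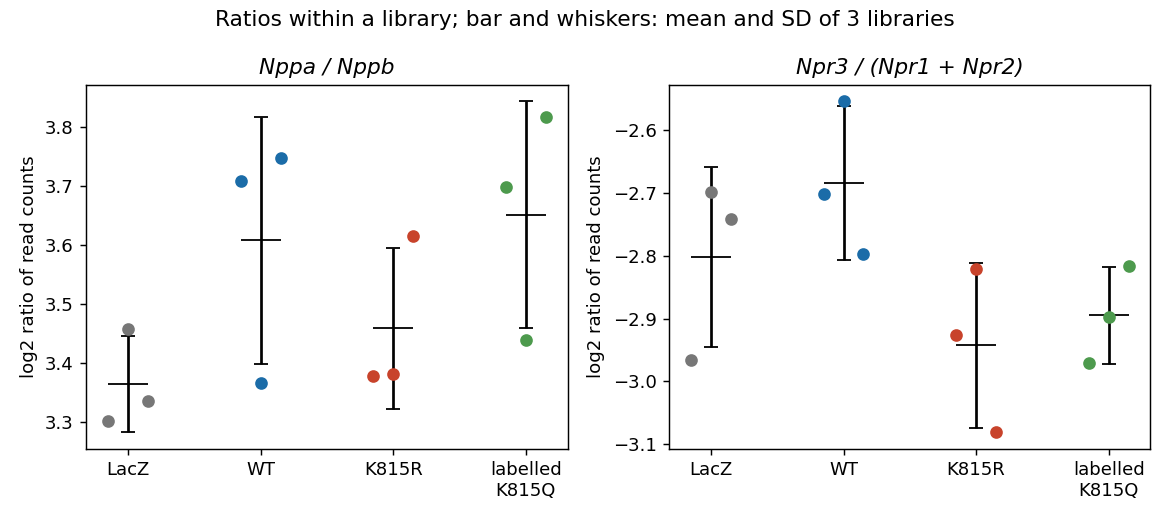
log2 ratio of read counts within each library (points) for Nppa to Nppb (left) and for Npr3 to the sum of Npr1 and Npr2 (right), by group, with the mean and SD of 3 libraries. On the right the WT libraries (-2.80 to -2.55) lie above those of K815R (-3.08 to -2.82) and the K815Q-labelled ones (-2.97 to -2.82); exact permutation tests over the 4 groups gave p = 0.189 and p = 0.123.

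Nppc (ENSRNOG00000018854) was close to the limit of the data. Its raw counts were 13, 4 and 5 with LacZ, 4, 8 and 5 with WT, 6, 9 and 6 with K815R, and 7, 8 and 10 in the K815Q-labelled libraries. A count of 3, the floor used here, corresponds to 0.118 to 0.156 CPM, and the group means ran from 0.285 to 0.43 CPM. No order of groups could be read at this depth: in a fit without the filter every comparison had an adjusted p of at least 0.69 by edgeR, with standard errors of 0.485 to 0.52 on the log2 scale.

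Among the processing proteases, Furin (ENSRNOG00000011352) was measured with little spread. It stood at 396.8, 377.2 and 392.4 CPM with LacZ, 354.7, 355.5 and 367.8 with WT, 386.4, 441.7 and 385.6 with K815R, and 389.8, 399.4 and 375.9 in the K815Q-labelled libraries. Every WT library was below every other library, and the other 3 groups overlapped. The order of group means was again K815R, LacZ, labelled K815Q and WT. WT differed from LacZ by -0.11 on the log2 scale (adjusted p 0.241), from K815R by 0.17 in favour of K815R (adjusted p 0.103) and from the K815Q-labelled libraries by 0.11 in favour of the latter (adjusted p 0.340, all by edgeR). None of these was called, and the interval of K815R against WT, the largest of the 6 differences, ran from 0.06 to 0.28. That comparison was called by DESeq2 (0.18, adjusted p 0.0440) and by edgeR without a filter (0.18, adjusted p 0.0344). RefSeq lists a noncoding gene overlapping Furin, and another overlapping Npr1, whose reads could be shared if the counting ignored strand.

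Corin (ENSRNOG00000002302), the protease of the atrial precursor, was counted from 58 to 113 reads per library. It stood at 4.31, 4.19 and 4.63 CPM with LacZ, 3.30, 4.86 and 3.90 with WT, 2.99, 4.30 and 3.27 with K815R, and 3.33, 5.13 and 3.86 in the K815Q-labelled libraries. Replicate 2 was the highest library in WT, in K815R and in the K815Q-labelled libraries, and the lowest in LacZ. The groups overlapped in every comparison. The lowest mean was in K815R, at 3.52 ± 0.689 CPM against 4.38 ± 0.228 in LacZ (SD, n = 3 each), a log2 difference of -0.30 with an interval of -0.65 to 0.05 (adjusted p 0.457 by edgeR). A decrease of up to about that lower bound is therefore not excluded. RefSeq lists a pseudogene and a protein-coding gene overlapping Corin, so its count is uncertain.

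Of the receptors, Npr1 (ENSRNOG00000014684), which answers both cardiac hormones by making cGMP, differed most. Its levels were 11.4, 10.4 and 9.10 CPM with LacZ, 11.4, 11.1 and 10.9 with WT, 13.9, 13.6 and 14.4 with K815R, and 12.5, 12.3 and 11.1 in the K815Q-labelled libraries. All 3 K815R libraries were above all 9 others, and the other groups overlapped. The means were 10.3 ± 1.13 CPM with LacZ, 11.1 ± 0.248 with WT, 14.0 ± 0.415 with K815R and 12.0 ± 0.766 in the K815Q-labelled libraries (SD, n = 3 each). Against LacZ, K815R was higher by 35.8% (log2 fold change 0.44, SE 0.0892, 95% interval 0.26 to 0.63, adjusted p 0.00665 by edgeR). Without LacZ replicate 3, the lowest library, the log2 fold change was 0.36 and the call was lost (adjusted p 0.0509 by edgeR); the other 5 fits that left out a library kept it.

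Against WT, the Npr1 difference of 0.33 (95% interval 0.14 to 0.51) fell just short of the threshold, with an adjusted p of 0.0562 by edgeR. Against the K815Q-labelled libraries it was 0.22 (95% interval 0.04 to 0.41, adjusted p 0.339 by edgeR). The order of groups was K815R, labelled K815Q, WT and LacZ, and no pair of neighbours in it was called. In this order LacZ came last, whereas for Nppb it came after K815R. Endothelial cells also carry this receptor. Their 7 markers summed to 184 to 212 CPM in K815R and 171 to 192 in LacZ. The sum was 171 to 217 CPM in WT and 145 to 199 in the K815Q-labelled libraries. Against LacZ, 7 of 7 had a higher fitted level in K815R, with a median log2 difference of 0.08 against 0.00 for all genes. None was near the threshold (adjusted p 0.782 to 0.984 by edgeR). The 8 macrophage markers summed to 64.6 to 69.0 CPM in K815R and 48.8 to 63.0 in LacZ, without overlap. In the K815Q-labelled libraries, where Npr1 was not called against LacZ, they summed to 64.9 to 70.6 CPM, also above LacZ. In WT they summed to 61.7 to 65.2 CPM. The part of either in the Npr1 result was not tested.

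Npr2 (ENSRNOG00000015991), the receptor of C-type natriuretic peptide, stood at 30.4, 27.0 and 28.9 CPM with LacZ, 24.0, 27.6 and 26.9 with WT, 28.2, 31.3 and 26.5 with K815R, and 32.07, 31.79 and 27.98 in the K815Q-labelled libraries. Only the WT libraries and those labelled K815Q did not overlap, by a margin of 27.6 against 27.98 CPM. That was also its largest difference, 0.23 on the log2 scale (95% interval 0.06 to 0.39, adjusted p 0.170 by edgeR), and it was not called. Npr3 (ENSRNOG00000019184), the clearance receptor, had the flattest profile of the 7, with group means of 5.58, 5.80, 5.56 and 5.69 CPM in LacZ, WT, K815R and the K815Q-labelled libraries. Its single libraries ran from 4.81 CPM in K815R replicate 3 to 6.56 in WT replicate 2, and every pair of groups overlapped. The 6 log2 differences lay between -0.05 and 0.06, and their intervals reached from -0.31 to 0.31, so differences within that range are not excluded. The counts of Npr3 relative to those of Npr1 and Npr2 together were lowest in K815R, at 0.13 ± 0.0117, and highest in WT, at 0.156 ± 0.0133 (SD, n = 3 each). Every WT library had a higher ratio than every K815R and every K815Q-labelled library, while the LacZ range overlapped all of them. A difference in the log2 ratio among the 4 groups was not called (exact permutation test, p = 0.123, adjusted over 2 ratios 0.189). Without LacZ replicate 1, the lowest LacZ library, the exact permutation p was 0.0493 before adjustment.

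**Figure D3:**
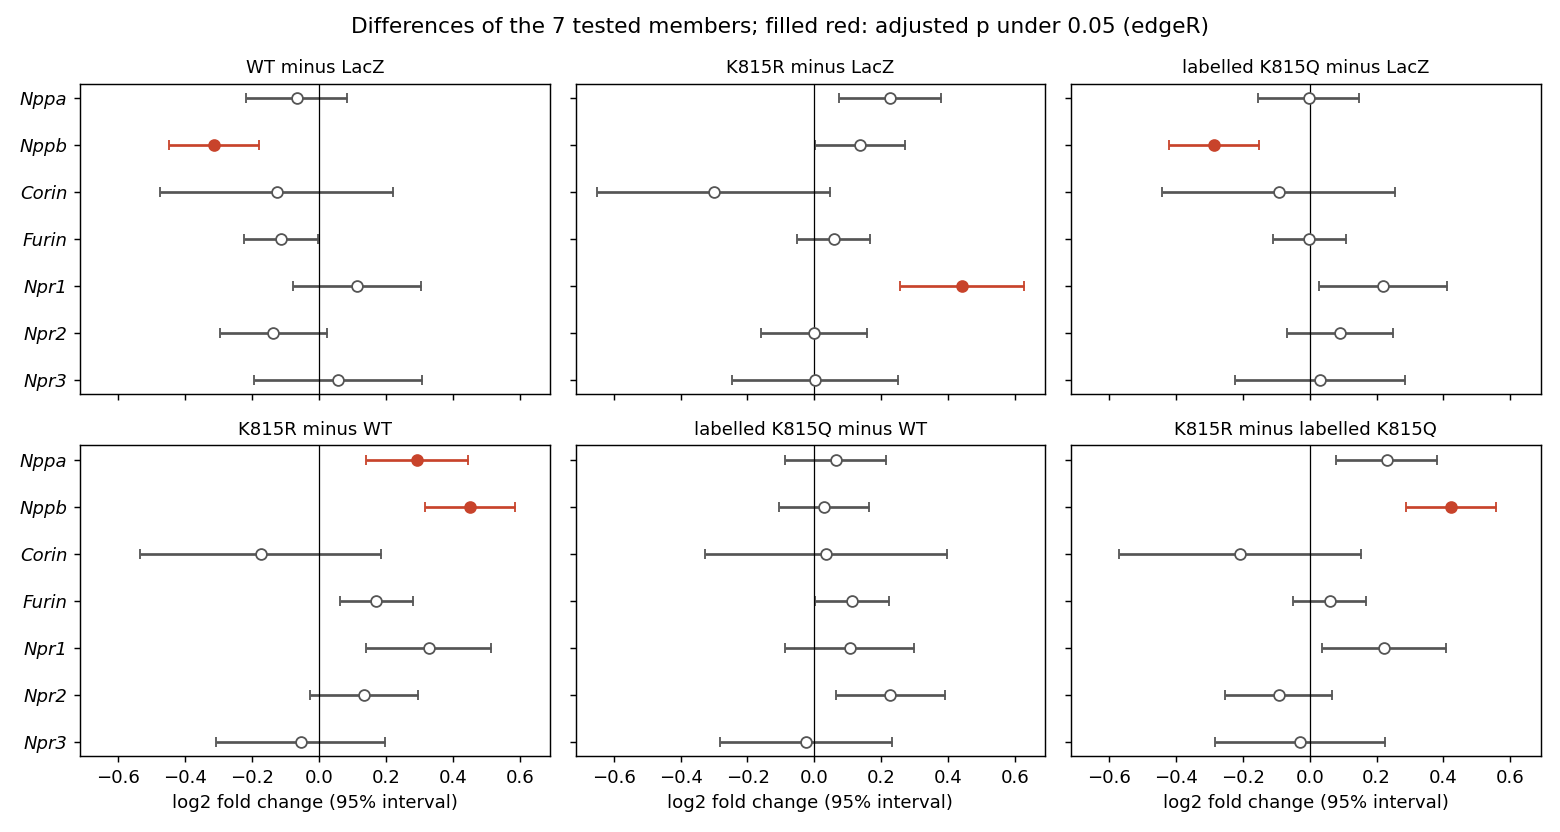
log2 fold change with 95% interval (x axis) of the 7 tested members in each of the 6 comparisons; filled red points have an adjusted p under 0.05 by edgeR, and the vertical line marks no difference. Nppb is called in 4 panels, Nppa and Npr1 in 1 each, and every Npr3 interval spans 0.

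The genes around this system were taken from 4 lists: cGMP signalling, peptide breakdown and convertases, cardiac transcription factors and cofactors that act on Nppa or Nppb, and fetal and hypertrophy genes. Together 75 of their genes were tested, and 28 of 450 results over the 6 comparisons were called, 6.22%, where 3.22% of the results of all genes were called. In at least 1 comparison 18 of the 75 genes were called, 24.0%, where 12.3% of all genes were. Nothing is read from these shares about any list.

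Downstream of the receptors, the cGMP list had 19 tested genes and 7 calls in 114 results. That was 6.14%, where 3.22% of the results of all genes were called. The medians of the list lay between -0.04 and 0.08 on the log2 scale. In WT against LacZ 1 was higher and 1 lower: Pln, the inhibitor of the calcium pump that cGMP-dependent kinase phosphorylates (0.22, adjusted p 0.0119), and Pde3b, a phosphodiesterase inhibited by cGMP (-0.45, adjusted p 0.0164, both by edgeR), in 4 and 2 of 6 fits that left out a library. Pln was also higher in the K815Q-labelled libraries than in LacZ (0.24, adjusted p 0.00634 by edgeR; 4 of 6 fits). Mrvi1, which encodes a substrate of cGMP-dependent kinase, fell from 54.9 ± 1.56 CPM in LacZ to 43.4 ± 4.91 in K815R and 45.0 ± 1.97 in the K815Q-labelled libraries (SD, n = 3 each; adjusted p 0.00510 and 0.00968 by edgeR). Leaving out 1 library kept the first of these in 6 of 6 fits and the second in 5 of 6. Rgs2, a brake on G protein signalling that cGMP-dependent kinase activates, was lower in K815R than in the K815Q-labelled libraries (-0.36, adjusted p 0.0281 by edgeR) and higher in the latter than in WT (0.31, adjusted p 0.0360 by edgeR). These calls held in 2 and 1 of 6 such fits. Pde2a, the phosphodiesterase that cGMP stimulates, came nearest to a call in K815R against LacZ (0.21, adjusted p 0.0661 by edgeR). Prkg1, the main cGMP-dependent kinase of heart and vessels, was not matched by symbol and is not reported.

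Of 12 tested genes of peptide breakdown and conversion, 3 were called in at least 1 comparison, where 12.3% of all genes were. Pcsk6 (PACE4), the convertase that activates corin, stood at 84.6 ± 7.87 CPM with LacZ, 65.2 ± 7.00 with WT, 81.6 ± 4.71 with K815R and 74.3 ± 3.61 in the K815Q-labelled libraries (SD, n = 3 each). It was lower in WT than in LacZ (-0.37, adjusted p 0.00560 by edgeR), in 6 of 6 fits that left out a library. K815R exceeded WT in Pcsk6 by 0.32 (adjusted p 0.0326 by edgeR), in 1 of 6 such fits. Galnt1, which adds O-linked sugars to secreted proteins, was lower in WT than in LacZ (-0.33, adjusted p 0.00280 by edgeR; 6 of 6 fits). Scg2, a granin of secretory granules, was higher in the K815Q-labelled libraries than in LacZ (0.60, adjusted p 0.0498 by edgeR; 2 of 6 fits). Mme, which encodes the peptide-degrading enzyme neprilysin, stood at 7.88 to 9.52 CPM in the group means and was called in no comparison.

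The 28 transcription factors and cofactors gave 5 calls in 168 results, 2.98%, a share near the 3.22% of all genes. Against LacZ, Irx4, a ventricular homeobox factor, was higher in WT (0.26, adjusted p 0.00537) and in the K815Q-labelled libraries (0.33, adjusted p 7.04e-04, both by edgeR), in 6 of 6 fits each. Hand2 was higher in K815R (0.27, adjusted p 0.0295), and in the K815Q-labelled libraries Gata6 was higher (0.20, adjusted p 0.0377) and Nfatc3 lower (-0.30, adjusted p 0.0252, all by edgeR). Each of these 3 calls held in 2 of 6 fits that left out a library. Gata4, which binds GATA sites before both peptide genes, stood at 205 ± 0.879 CPM with LacZ, 204 ± 8.19 with WT, 228 ± 12.0 with K815R and 205 ± 5.22 in the K815Q-labelled libraries (SD, n = 3 each). The test for any difference did not call it (adjusted p 0.0794 by edgeR). Egr1, an immediate early gene, stood at 28.7 ± 8.36, 60.7 ± 36.2, 70.8 ± 12.5 and 73.8 ± 14.9 CPM in the same order (SD, n = 3 each), the largest fold differences of the list, and with this spread no comparison was called (adjusted p 0.0865 or more by edgeR); it was singled out after its values were seen. Nkx2-5 and Tead1 were not called either (adjusted p 0.166 and 0.522 by edgeR).

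The 16 fetal and hypertrophy genes gave 12 calls in 96 results, 12.5%, where 3.22% of the results of all genes were called. Of the 16, 3 were called higher in K815R than in WT, where 1.32% of all genes were. Nppa and Nppb were called higher there too. The 3 of the list were Ankrd1, a stretch-responsive sarcomere protein (0.44, adjusted p 0.0465), Myh7, the slow myosin heavy chain (0.37, adjusted p 0.0387), and Rcan1, a calcineurin target and inhibitor (0.27, adjusted p 0.0304, all by edgeR). These held in 1, 0 and 2 of 6 fits that left out a library, against 6 of 6 for Nppb. Against LacZ, Mybpc2 was lower in WT (-0.45, adjusted p 0.00156) and in the K815Q-labelled libraries (-0.57, adjusted p 1.68e-04, both by edgeR; 6 of 6 fits each). Ankrd1 was higher in K815R (0.46, adjusted p 0.0336 by edgeR; 2 of 6 fits). Rcan1 was lower in WT (-0.28, adjusted p 0.00991) and in the K815Q-labelled libraries (-0.22, adjusted p 0.0390, both by edgeR), as Nppb was, in 5 and 1 of 6 fits. Also lower in the latter were Xirp2, an actin-binding protein of the intercalated disc (-0.43, adjusted p 6.66e-04; 6 of 6 fits), and the skeletal actin Acta1 (-0.34, adjusted p 0.0497, both by edgeR; 2 of 6 fits, and 0.0866 with the replicate number as a block). In K815R against the K815Q-labelled libraries, Myh7 (0.48, adjusted p 0.0281) and Fhl1 (0.23, adjusted p 0.0471, both by edgeR) were higher, in 1 and 0 of 6 fits. The median log2 difference of the list was 0.04 in K815R against WT and 0.10 in K815R against the K815Q-labelled libraries, with 0.00 for all genes in both.

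**Figure D4:**
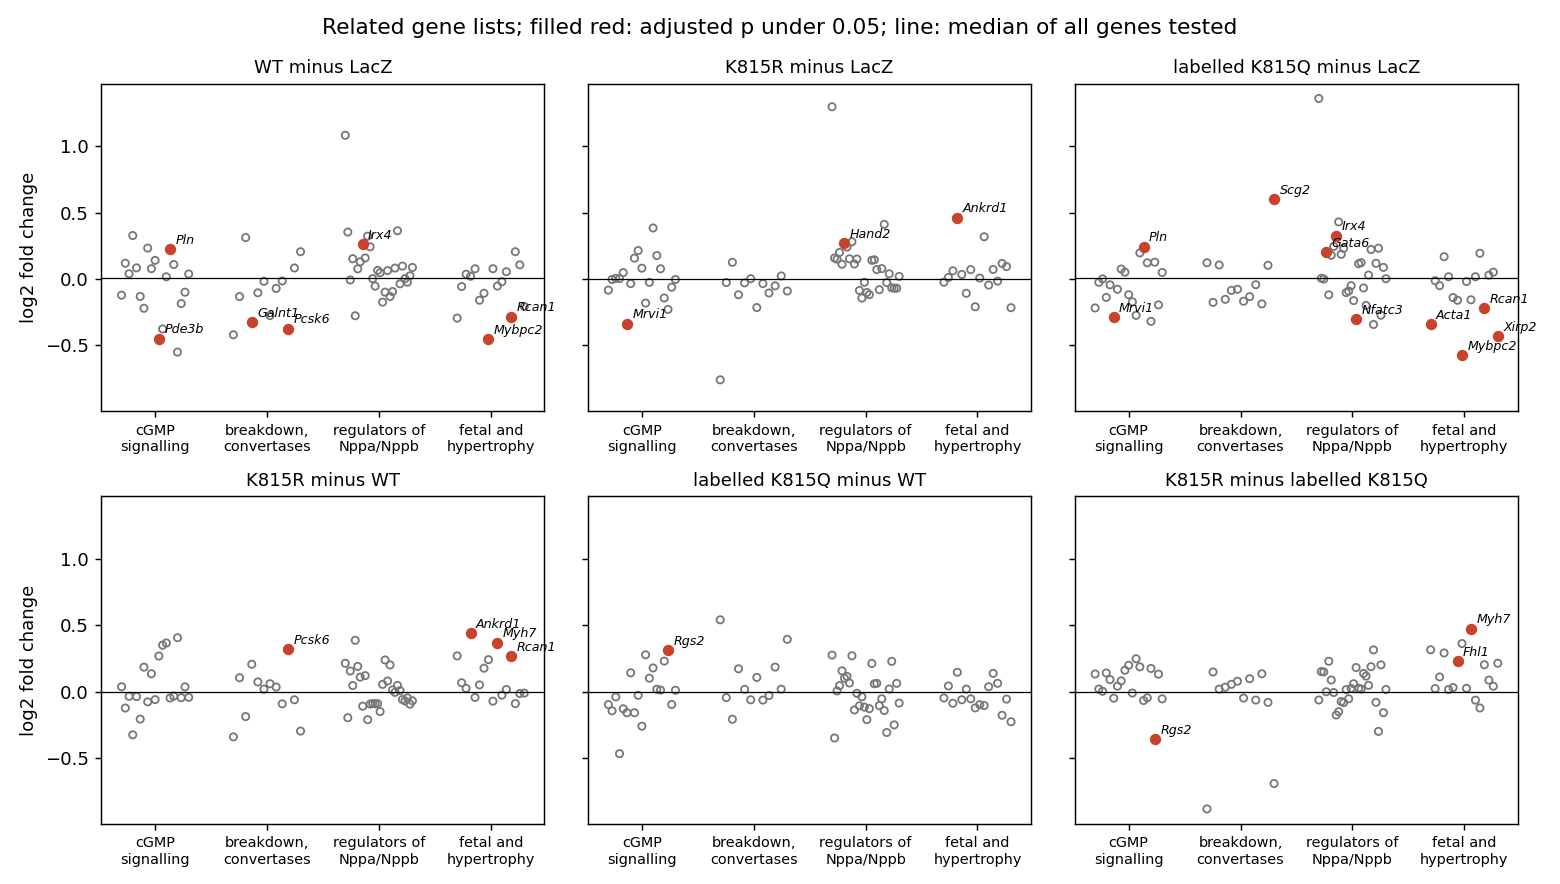
log2 fold change (y axis) of the tested genes of 4 lists (x axis) in the 6 comparisons; filled red points, with names, have an adjusted p under 0.05 by edgeR, and the line is the median of all genes tested. Egr1 is the highest uncalled point in each comparison with LacZ. In K815R against WT the called fetal and hypertrophy genes lie above the line.

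To see which genes had the profile nearest to that of each peptide gene, log2 CPM was correlated over the 12 libraries across 8709 genes with a mean of at least 10 CPM. The nearest to Nppb were P4ha1 (Pearson r 0.92), Pald1 (0.88), Ero1a (0.87), Sin3a (0.87) and Vps53 (0.87). P4ha1, a subunit of the enzyme that hydroxylates collagen prolines, stood at 219 CPM with LacZ, 190.5 with WT, 222 with K815R and 195 in the K815Q-labelled libraries on average, the same order of groups as Nppb. Leaving out each library in turn left its r between 0.91 and 0.94. The nearest to Nppa were Vta1 (0.91), Des (0.91), Rab13 (0.90), Slc16a3 (0.89) and Aldoa (0.88), of which Des encodes the muscle intermediate filament desmin and Slc16a3 a lactate transporter. The 2 sets share no gene. These are the highest of many correlations over libraries that share groups and scaling, and they are given as a description.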

How the data were processed

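Poly(A) RNA of 12 libraries, made strand-specific and sequenced in pairs per the labels' protocols, was counted per gene. The authors deposited raw read counts for 32883 Ensembl genes; the submitters' processing notes name Trimmomatic 0.39, HISAT2 2.2.1, HTSeq 0.6.1, edgeR and the build Rnor_6.0, without roles. Which annotation was counted, and whether by strand, is not given in the sources used here. The table ends with 5 lines that count reads assigned to no gene, 40.7% to 43.3% of each library, and these stayed out.

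Counts were filtered with filterByExpr (minimum count 10, minimum total 15), scaled by TMM and tested with edgeR 4.0.16 in R 4.3.3 (quasi-likelihood, robust, 1 model of 4 group means). P-values were adjusted by Benjamini-Hochberg; log2 CPM used a prior count of 2. Ratios used a pseudocount of 0.5 counts and exact permutation tests over libraries. The members, lists and tests were chosen with earlier results of these data known. All 8 members are described; other genes are named when called and among the 3 with the largest change of their list and comparison, when their role is needed, or as the 5 nearest in profile or on each side of the Nppa and Nppb locus. Promoter sequences matched 6 of 8 members. Of 145 list entries 3 were not matched by symbol. Libraries of a group did not agree within sampling noise (chi-square per degree of freedom 4.54 to 8.74). Deviations of same-numbered libraries of different groups were weakly correlated at most, so numbers were not used as pairs in the main fit. Shared preparation by number is not excluded. Alternatives were other scaling, other filters, DESeq2 1.42.0, the replicate number as a block, only the 6 libraries compared, and leaving out libraries. Some results are not reported here.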

Additional observations from a re-analysis of the deposited data

How the results depend on the processing

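Over all alternatives, 552 of 567 member results kept their side of the threshold, 10 were no longer called and 5 became called. The sign differed from that reported in 32 of the 567, each of them uncalled in both fits and at most 0.09 in size as reported; 0 called results changed sign. Nppb in K815R against WT and against the K815Q-labelled libraries was called in every alternative run. Nppa in K815R against WT was not called when its 6 libraries were fitted alone (0.30) or, chosen after seeing the data, without the 3 K815Q-labelled libraries (0.29); leaving out 1 library gave 0.21 to 0.35. Without a filter, Nppa became called in K815R against LacZ (0.22) and against the K815Q-labelled libraries (0.23), and Furin (0.18) and Npr1 (0.33) in K815R against WT; DESeq2 also called Furin there (0.18). Leaving out 1 library gave 0.36 to 0.52 for Npr1 in K815R against LacZ and -0.36 to -0.24 for Nppb in the K815Q-labelled libraries against LacZ. In the test for any difference the adjusted p of Nppa ran from 0.0336 to 0.139 and that of Npr1 from 0.00813 to 0.0575 over these fits by edgeR. The ratio of Npr3 to the other receptors gave exact permutation p of 0.0493 (without LacZ replicate 1) to 0.303.

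Counts of genes called moved more. Without a filter they were 600 (K815R against LacZ), 553 (K815R against WT), 423 (labelled K815Q against WT), 307 (K815R against labelled K815Q) and 2036 (any difference), against 348, 309, 151, 51 and 1143. K815R against the K815Q-labelled libraries gave 98 by DESeq2 and 85 in a fit of only those 6 libraries. With the replicate number as a block the counts were 232 for the K815Q-labelled libraries against WT and 86 for K815R against the K815Q-labelled libraries, and the block changed the call of 0 members. Same-numbered libraries had correlations of their deviations from -0.13 to 0.12, and 4 of 12 libraries correlated best with their own number, so the numbers give no pairing. Leaving out 1 library, the counts ran from 378 to 639 (WT against LacZ), 173 to 308 (K815R against LacZ), 360 to 1182 (labelled K815Q against LacZ), 124 to 177 (K815R against WT), 50 to 146 (labelled K815Q against WT), 11 to 98 (K815R against labelled K815Q) and 650 to 1309 (any difference). The lowest came without LacZ replicate 2, K815R replicate 1, K815Q replicate 1, WT replicate 2, WT replicate 1, K815Q replicate 1 and LacZ replicate 2, in that order; the cause was not tested. Among the 28 called results of the lists and the calls of neighbouring genes, 109 of 433 alternative fits lost the call and 0 changed sign. Depth limits Nppc, Corin and Npr3 most.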

Other observations

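Nppa and Nppb lie next to each other on chromosome 5 in the RefSeq annotation, with 0 protein-coding genes between them. Of the 10 nearest protein-coding genes, 5 on each side, 8 were matched in the count table and 6 passed the filter. The nearest on either side, 2510039O18Rikl and the chloride transporter gene Clcn6, were called in no comparison, with log2 differences from -0.11 to 0.03 and from -0.16 to 0.13. Mfn2 and Agtrap were not called either.

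Plod1, a lysyl hydroxylase of collagen on the Nppb side of the locus, was called in 1 comparison: K815R exceeded WT by 0.20 (adjusted p 0.0451 by edgeR), and the call held in 0 of 6 fits with 1 library left out.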
